A study of Homo sapiens with 6 samples.

Results

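Translation initiation factors and the kinases that act on eIF2 were examined as a group of 50 genes out of 18372 measured in A375, an established human melanoma cell line. Members were all genes whose symbol starts with EIF1 to EIF6, each read by its brightest probe set with a single gene symbol. The rule used names and mean signal alone and no difference between the groups. Cells transfected with siFAH, a small interfering RNA against FAH (fumarylacetoacetate hydrolase, the last enzyme of tyrosine breakdown), were compared with cells transfected with a negative control siRNA. Each group had 3 arrays of cells harvested 72 h after transfection, stated to be biological replicates, on Affymetrix Human Gene 1.0 ST arrays. The labels do not say which FAH siRNA was used on the arrays, both groups come from 1 cell line, and total RNA from whole cultures was hybridized, so fewer cells of a type and less RNA per cell cannot be told apart.

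Initiation brings the small ribosomal subunit, the initiator tRNA and the mRNA together. eIF2, made of an alpha, a beta and a gamma subunit, carries the initiator tRNA with GTP, eIF5 triggers hydrolysis of that GTP when the start codon is found, and eIF2B reloads eIF2 with GTP. The EIF2AK kinases phosphorylate eIF2 alpha, which blocks eIF2B, lowers most protein synthesis and favors translation of ATF4. eIF3 is the large scaffold on the small subunit, and the eIF4 factors bind the mRNA cap and unwind the leader. The EIF4EBP proteins hold the cap-binding factor eIF4E inactive until mTORC1 phosphorylates them.

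Values are the authors' RMA signals on the log2 scale, a difference is siFAH minus control siRNA, and calls were made where the limma p, adjusted over all 18372 genes by Benjamini-Hochberg, was under 0.05. FAH itself had log2 signals of 4.92, 4.60 and 4.92 in siFAH arrays, against 5.48, 5.59 and 5.68 in control arrays, a difference of -0.77 (SE 0.10, limma adjusted p = 0.00213). Array medians over all probe sets were 5.003 to 5.038 in siFAH arrays and 4.922 to 4.996 in control arrays, and the correlation between arrays was 0.9949 to 0.9972 within a group and 0.9873 to 0.9949 between groups. Of the melanocyte markers, SOX10, S100B and MITF had signals at percentiles 95, 84.1 and 72.5 of all genes, while TYR, TYRP1, MLANA and PMEL lay between 7.53 and 20.1. Signal depends on probes as well as on transcripts, so these percentiles are descriptive. None of the 9 melanocyte, 3 immune, 3 endothelial and 4 fibroblast markers measured was called by limma (at an unadjusted p under 0.05 SOX10 was lower and MLANA higher), and of 5 keratinocyte markers KRT10 was called higher (0.45, limma adjusted p = 0.0213). The part of these shifts in the results below was not tested.

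Of the 50 members, 3 were lower in siFAH cells (EIF5, EIF2S2 and EIF2B2), 2 were higher (EIF1B and EIF4EBP2) and 45 were not called. Over all genes, 6.38% were called lower and 3.48% higher, and the 6% of members called lower lie close to the first share. In the brightest 20% by mean signal, 15.9% of genes were called lower and 6.79% higher. Of the 36 members there, 3 were lower and 2 higher, which were all 5 calls. With each array centred on its median, which shifted the median of all genes to -0.05, 6 members were lower and 0 higher, and 80.1% of all calls were lower, against 64.7% with the authors' values. In all, 38 members had a negative difference and the median difference was -0.12, against 0.01 over all genes, of which 48.6% were negative. Arrays of the groups did not overlap for 25 members in the lower direction and 5 in the higher one, where 18.6% and 13.4% of all genes were in the same position, and 42.0% and 15.1% of the genes in the brightest 20% by mean signal, where 36 members lie. At an unadjusted p under 0.05 there were 17 lower and 2 higher members, beside 15.3% and 10.8% of all genes and 34.5% and 12.5% of the brightest 20%. As a share of the 50 members, 17 is 34%. The methods' limits of 1.2-fold and an unadjusted p under 0.05 gave 4 lower members (the 3 above and EIF3I) and 1 higher member (EIF1B), beside 7.83% and 4.74% of all genes.

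**Figure D1:**
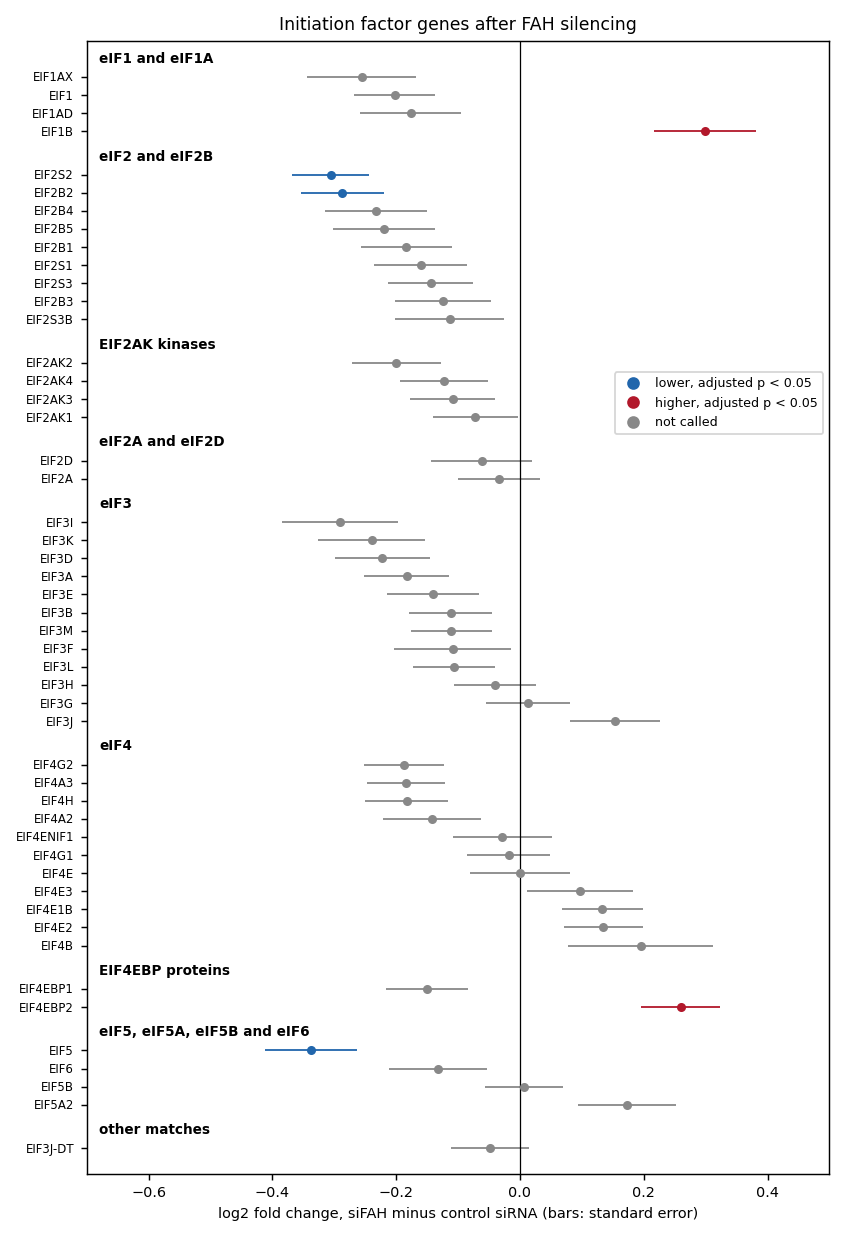
Difference in log2 signal, siFAH minus control siRNA, of 49 members grouped by role; points are limma estimates from 3 arrays a group, bars are standard errors and color marks the call. All 9 eIF2 and eIF2B genes, among them EIF2S3B with its low signal, lie left of 0, and the 11 eIF4 genes lie on both sides of it.

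The promoters of the called members are shown first. These genes passed the test in the main fit, 3 lower and 2 higher, and are grouped by their names. The RefSeq table (GRCh38.p14) held 250 bases upstream of an annotated start for 41 of 49 members and for 4 of the 5 called ones, and EIF2S2 is named only. The windows are chr3:40309457-40309706 for EIF1B, chr14:75002671-75002920 for EIF2B2, chr10:70403895-70404144 for EIF4EBP2, and chr14:103333987-103334236 and chr14:103334638-103334887 for 2 starts of EIF5, all on the plus strand. They run 5′ to 3′ up to the base before the start, and capitals mark matches to the motifs searched.
EIF1B: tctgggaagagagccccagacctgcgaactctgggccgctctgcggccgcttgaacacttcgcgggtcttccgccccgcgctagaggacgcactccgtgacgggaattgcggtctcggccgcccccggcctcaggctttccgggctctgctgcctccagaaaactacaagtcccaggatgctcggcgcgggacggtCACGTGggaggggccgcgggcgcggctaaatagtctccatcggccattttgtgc
EIF2B2: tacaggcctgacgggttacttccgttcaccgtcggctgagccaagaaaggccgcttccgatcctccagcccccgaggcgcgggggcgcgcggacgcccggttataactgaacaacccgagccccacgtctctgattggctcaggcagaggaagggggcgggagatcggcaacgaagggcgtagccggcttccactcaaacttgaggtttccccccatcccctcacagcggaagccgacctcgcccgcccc
EIF4EBP2: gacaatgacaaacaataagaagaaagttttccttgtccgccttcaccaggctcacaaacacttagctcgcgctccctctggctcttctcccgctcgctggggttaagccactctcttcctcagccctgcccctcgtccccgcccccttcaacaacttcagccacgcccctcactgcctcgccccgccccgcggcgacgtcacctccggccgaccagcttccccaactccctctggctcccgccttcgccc
EIF5, upstream start: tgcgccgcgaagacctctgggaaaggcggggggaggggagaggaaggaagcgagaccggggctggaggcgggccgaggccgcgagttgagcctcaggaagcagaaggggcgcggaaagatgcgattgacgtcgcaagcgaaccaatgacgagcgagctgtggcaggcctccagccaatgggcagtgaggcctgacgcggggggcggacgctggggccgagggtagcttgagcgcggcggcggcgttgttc
EIF5, downstream start: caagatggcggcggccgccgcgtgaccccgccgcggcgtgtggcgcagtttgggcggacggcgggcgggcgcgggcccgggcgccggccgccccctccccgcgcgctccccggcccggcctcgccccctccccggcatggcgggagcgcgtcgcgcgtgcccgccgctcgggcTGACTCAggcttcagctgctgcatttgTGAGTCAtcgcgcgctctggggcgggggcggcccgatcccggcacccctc

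The motifs, searched on both strands, were the E-box CACGTG, the CRE TGACGTCA, the C/EBP-ATF composite TTGCATCA, the AP-1 site TGACTCA and the ETS core CCGGAAG. No motif's letters hold another's. The E-box CACGTG in EIF1B began 54 bases before the start, and the window of the downstream EIF5 start held the AP-1 letters 77 and 50 bases before it, the second on the opposite strand. The windows of EIF2B2, EIF4EBP2 and the upstream EIF5 start held none of the 5 motifs. Of all 35116 promoters listed there, 6.34% held the E-box, 1.65% the CRE, 0.772% the composite, 4.20% the AP-1 site and 8.52% the ETS core. Among the 52 member entries, 11 held the E-box (21.2%), 11 the ETS core (21.2%), 5 the AP-1 site (9.62%), and neither the CRE nor the composite was found. E-box carriers did not share a direction: 7 of 11 genes had a negative difference, from EIF3K at -0.24, and EIF1B stood at 0.30. Of the genes with the ETS core 7 of 9 were negative, and of those with the AP-1 site 3 of 4, beside 38 of 49 members. A match is a run of letters and not a measured binding site.

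All 9 genes of eIF2 and eIF2B had negative differences, from -0.31 to -0.11, with a median of -0.18. Over all genes 48.6% were negative, and 69.3% of the brightest 20%. The gene nearest 0, EIF2S3B, had a low signal, at percentile 16 of all genes, and its groups overlapped. EIF2S2 and EIF2B2 were called lower (6.38% of all genes were, and 15.9% of the brightest 20%) and 7 genes were not called. The arrays of 7 genes did not overlap, all in the lower direction, as for 18.6% of all genes and 42.0% of the brightest 20%. The mean log2 signal of the 9 genes was 7.34, 7.31 and 7.27 in siFAH arrays and 7.46, 7.47 and 7.58 in control arrays.

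EIF2S2 encodes eIF2 beta, which binds eIF5 and eIF2B. Its log2 signals were 8.76, 8.78 and 8.74 in siFAH arrays, against 9.07, 9.07 and 9.06 in control arrays. The groups stood apart and both were tight, with SDs of 0.020 and 0.0025 (n = 3 each). The difference was -0.31 (SE 0.06, limma adjusted p = 0.0154), or 0.809-fold. The call was lost without siFAH replicate 2 (adjusted p = 0.0519), siFAH replicate 3 (0.0601) or control replicate 2 (0.0606), with a range of 0.0322 to 0.0606 over the 6 omissions of 1 array.

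The other eIF2 subunits were not called. EIF2S1, the alpha subunit that the kinases phosphorylate, had 7.78, 7.84 and 7.88 in siFAH arrays and 7.88, 7.99 and 8.11 in control arrays (-0.16, SE 0.08, limma adjusted p = 0.208). EIF2S3, the gamma subunit that binds GTP and the tRNA, had 10.34, 10.33 and 10.36 in siFAH arrays and 10.49, 10.40 and 10.57 in control arrays (-0.14, SE 0.07, adjusted p = 0.214). For both genes the highest siFAH array lay under the lowest control array. EIF2S3B, a near copy of EIF2S3, gave a low signal of 3.71, 3.44 and 3.43 in siFAH arrays and 3.62, 3.73 and 3.57 in control arrays, and the groups overlapped (-0.11, adjusted p = 0.454).

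In eIF2B, EIF2B2 (the beta subunit of its regulatory core) was called lower. Its log2 signals were 7.69, 7.66 and 7.60 in siFAH arrays, against 7.90, 7.91 and 8.01 in control arrays, and each siFAH array was below each control array. The difference was -0.29 (SE 0.07, limma adjusted p = 0.0269), or 0.820-fold. The call was lost when the arrays were scaled by quantile normalization (-0.21, adjusted p = 0.0558) or cyclic loess (-0.20, adjusted p = 0.0693), and without siFAH replicate 2 (0.0804), siFAH replicate 3 (0.101), control replicate 2 (0.0707) or control replicate 3 (0.0796), and with the methods' t-test (0.116). The range over its alternatives was 0.00823 to 0.116.

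EIF2B5, the catalytic epsilon subunit, had 5.74, 5.79 and 5.66 in siFAH arrays and 5.93, 5.82 and 6.09 in control arrays (-0.22, SE 0.08, limma adjusted p = 0.123). EIF2B4, the delta subunit, had 6.94, 6.86 and 6.70 in siFAH arrays and 7.03, 7.00 and 7.16 in control arrays (-0.23, SE 0.08, adjusted p = 0.104). Neither passed the test, although their arrays did not overlap. EIF2B1, the alpha subunit, had 8.85, 8.76 and 8.80 in siFAH arrays and 8.91, 8.95 and 9.10 in control arrays (-0.18, SE 0.07, adjusted p = 0.141). EIF2B3, the gamma subunit that pairs with epsilon, had 6.23, 6.37 and 6.29 in siFAH arrays and 6.33, 6.37 and 6.55 in control arrays, and was the eIF2B gene whose groups overlapped (-0.12, SE 0.08, adjusted p = 0.346).

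EIF5, the GTPase activator of eIF2, had the lowest difference of the members. Its log2 signals were 7.27, 7.25 and 7.30 in siFAH arrays, against 7.62, 7.501 and 7.73 in control arrays. The siFAH arrays lay together and under the more spread control arrays (SD 0.027 and 0.11, n = 3 each). The difference was -0.34 (SE 0.07, limma adjusted p = 0.0207), or 0.791-fold. Its call was lost without siFAH replicate 2 (adjusted p = 0.0745), siFAH replicate 3 (0.0588) or control replicate 3 (0.0643), and with the methods' t-test (0.130). The range over its alternatives was 0.00645 to 0.130.

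**Figure D2:**
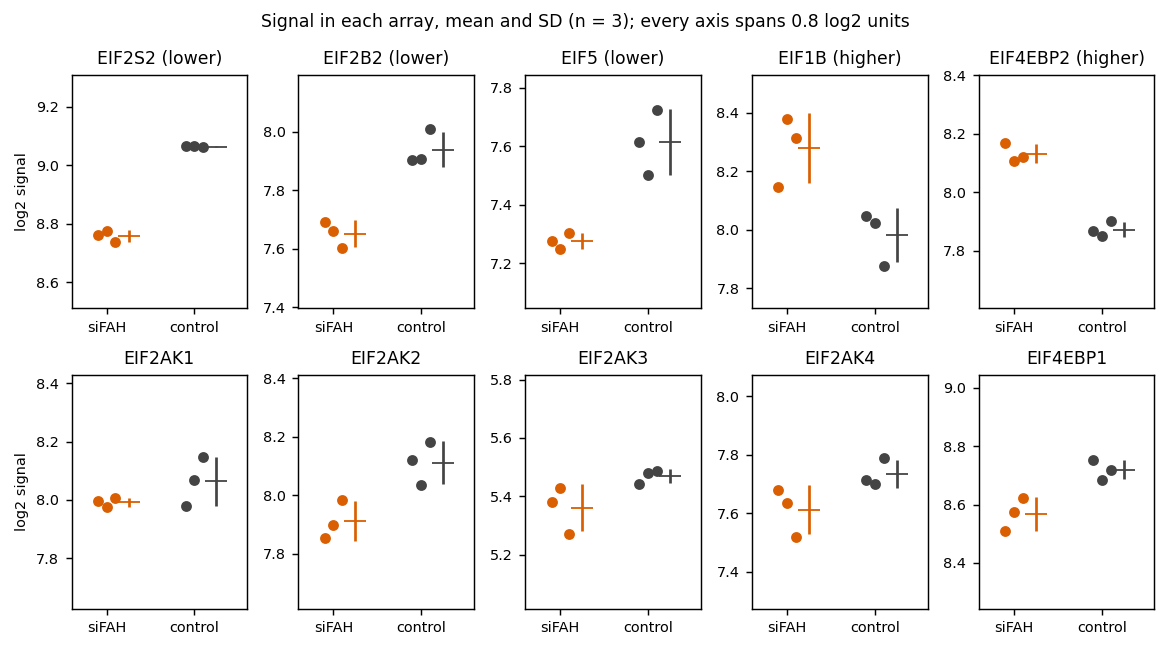
Log2 signal in each array of the 5 called members (upper panels) and of the kinases and EIF4EBP1 (lower panels), siFAH at left and control siRNA at right; crosses give mean and SD (n = 3) and each axis spans the same range. Groups are separate for the called members, and overlap for EIF2AK1.

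None of the 4 eIF2 kinases was called by limma or SAM. At an unadjusted limma p under 0.05, 1 was lower, beside 15.3% of all genes and 34.5% of the brightest 20%. All 4 differences were negative, with a median of -0.12, where 48.6% of all genes and 69.3% of the brightest 20% were negative. EIF2AK2 (PKR), which senses double-stranded RNA, had 7.85, 7.90 and 7.99 in siFAH arrays and 8.12, 8.04 and 8.18 in control arrays, with a difference of -0.20 (95% interval -0.36 to -0.04, limma adjusted p = 0.107). It passed the threshold when genes under the median signal were left out (adjusted p = 0.0450), and its adjusted p ran from 0.0450 to 0.379 over the alternatives. EIF2AK4 (GCN2), the sensor of amino acid shortage, had 7.68, 7.64 and 7.52 in siFAH arrays and 7.71, 7.70 and 7.79 in control arrays (-0.12, 95% interval -0.28 to 0.03, adjusted p = 0.304). For both kinases each siFAH array was below each control array.

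EIF2AK3 (PERK), the kinase of the endoplasmic reticulum, had 5.38, 5.43 and 5.27 in siFAH arrays and 5.44, 5.48 and 5.49 in control arrays (-0.11, 95% interval -0.26 to 0.04, limma adjusted p = 0.351). EIF2AK1 (HRI), the kinase controlled by heme, had 7.996, 7.97 and 8.01 in siFAH arrays and 7.98, 8.07 and 8.15 in control arrays (-0.07, 95% interval -0.23 to 0.08, adjusted p = 0.548). The groups overlapped for EIF2AK1 alone among the kinases, and its sign turned to 0.0105 with quantile normalization and 0.0182 with cyclic loess. The intervals exclude a rise or fall of 1 log2 unit for each kinase, a bound wider than the difference of FAH itself (-0.77). Smaller changes within the intervals are not excluded, and the interval of EIF2AK2 lay below 0. Levels of mRNA carry no measure of kinase activity or of eIF2 alpha phosphorylation.

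Among 18 genes listed as regulators of eIF2 phosphorylation, 5 were called lower and 0 higher (27.8% lower, beside 6.38% of all genes), with a median of -0.13. The list was drawn up with earlier results of these data known, so its share is a description and no independent evidence. DDIT3 (CHOP), a transcription factor downstream of ATF4, had 5.21, 5.22 and 5.07 in siFAH arrays, against 5.65, 5.78 and 5.78 in control arrays (-0.57, SE 0.07, limma adjusted p = 0.00234). TRIB3, a pseudokinase that DDIT3 and ATF4 induce, differed by -0.32 (adjusted p = 0.0291). PPP1R15B, the constitutive subunit that directs phosphatase 1 to eIF2 alpha, differed by -0.30 (adjusted p = 0.0348). The phosphatase 1 catalytic subunits PPP1CA (-0.29, adjusted p = 0.0200) and PPP1CB (-0.28, adjusted p = 0.0327) were also called, PPP1CB being named after its value was seen. At the methods' limits 7 genes of the list were lower and 0 higher, beside 7.83% and 4.74% of all genes. Those not called by limma were HSPA5 (-0.27, adjusted p = 0.0745), a chaperone that restrains PERK, and GCN1 (-0.26, adjusted p = 0.0655), an activator of GCN2. Both were named after their values were seen. The list held 8 lower and 3 higher genes at an unadjusted limma p under 0.05, beside 15.3% and 10.8% of all genes. The 3 higher ones were NCK1 (0.2022), IMPACT (0.1685) and TARBP2 (0.1475), which were not called and were also named after their values were seen. ATF4 had 6.78, 6.81 and 6.79 in siFAH arrays and 6.94, 7.01 and 6.84 in control arrays, which was not called (-0.14, adjusted p = 0.235).

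The 12 eIF3 genes measured gave 0 calls by limma. At an unadjusted p under 0.05, 4 of them (33.3%) were lower and 0 higher, beside 15.3% of all genes and 34.5% of the brightest 20%, and SAM called 0 of them lower. Of the 12 differences, 10 were negative, and the median was -0.11. The mean log2 signal of the 12 genes was 9.24, 9.23 and 9.22 in siFAH arrays and 9.31, 9.32 and 9.40 in control arrays. EIF3I, a propeller subunit, had 9.77, 9.59 and 9.55 in siFAH arrays and 9.77, 9.92 and 10.09 in control arrays (-0.29, SE 0.09, limma adjusted p = 0.0762). One siFAH array thus lay next to the lowest control array. EIF3I was called without control replicate 1 (adjusted p = 0.0384) and EIF3K without siFAH replicate 1 (0.0426), and over all alternatives the adjusted p of EIF3I ran from 0.0300 to 0.253.

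The core and lateral eIF3 subunits lay between these limits. EIF3A, the largest scaffold subunit, differed by -0.18 (limma adjusted p = 0.120), EIF3K by -0.24 (0.107) and EIF3D, which can bind the cap of some mRNAs, by -0.22 (0.0943). EIF3B, EIF3E, EIF3F, EIF3L and EIF3M had differences from -0.14 to -0.11, EIF3H stood at -0.04 and EIF3G at 0.01. EIF3J, a loosely bound subunit that acts in ribosome recycling, was the eIF3 gene with the highest difference, with 8.09, 8.08 and 8.21 in siFAH arrays and 8.05, 7.97 and 7.90 in control arrays (0.15, SE 0.07, adjusted p = 0.208). Its divergent transcript EIF3J-DT, a noncoding member by name, stood at -0.05 (adjusted p = 0.674).

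The 11 eIF4 genes measured gave 0 calls by limma. At an unadjusted p under 0.05, 3 of them (27.3%) were lower and 0 higher, where 15.3% of all genes and 34.5% of the brightest 20% were lower. SAM called 2 of them lower, beside 8.25% of all genes. Of them, 6 had a negative difference and the median was -0.02. The mean log2 signal of the group was 7.51, 7.58 and 7.53 in siFAH arrays and 7.54, 7.54 and 7.59 in control arrays, so that the groups overlapped. EIF4G2, a relative of eIF4G that does not bind eIF4E, had 9.77, 9.79 and 9.82 in siFAH arrays and 10.03, 9.95 and 9.96 in control arrays (-0.19, SE 0.06, limma adjusted p = 0.0944). EIF4A3, the helicase of the exon junction complex, differed by -0.18 (0.0950), as did EIF4H, a helper of the helicase eIF4A (0.115).

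The cap-binding genes were close to 0 or above it. EIF4E had a low signal, at percentile 15.8 of all genes and near the endothelial marker PECAM1 (15.1), so a change could go unseen. It had 3.46, 3.58 and 3.66 in siFAH arrays and 3.68, 3.55 and 3.46 in control arrays, a difference of 0.00 (95% interval -0.18 to 0.18, limma adjusted p = 0.999). Its relative EIF4E2, a cap-binding repressor, had 7.53, 7.57 and 7.55 in siFAH arrays and 7.39, 7.45 and 7.42 in control arrays (0.13, SE 0.06, adjusted p = 0.206). EIF4E1B and EIF4E3, further relatives, stood at 0.13 and 0.10, the scaffold EIF4G1 at -0.02, and EIF4ENIF1, which carries eIF4E into the nucleus, at -0.03. None of these genes passed the test.

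EIF4EBP2, an inhibitor of eIF4E, was called higher. It had 8.17, 8.11 and 8.12 in siFAH arrays, against 7.87, 7.85 and 7.90 in control arrays, with no overlap. The difference was 0.26 (SE 0.06, limma adjusted p = 0.0310), or 1.197-fold. EIF4EBP1 had 8.51, 8.57 and 8.62 in siFAH arrays and 8.75, 8.69 and 8.72 in control arrays, also without overlap, and was not called (-0.15, 95% interval -0.30 to -0.003, adjusted p = 0.182). The call of EIF4EBP2 was lost with median centring (0.21, adjusted p = 0.0913), with the methods' t-test (0.0798) and with any 1 of the 6 arrays left out: 0.0786, 0.0821 and 0.0885 without siFAH replicates 1, 2 and 3, and 0.0585, 0.102 and 0.0575 without control replicates 1, 2 and 3.

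Of the eIF1 genes, EIF1B was called higher. EIF1B, a paralog of the start codon factor EIF1, had 8.15, 8.38 and 8.32 in siFAH arrays, against 8.05, 8.02 and 7.88 in control arrays, so that the lowest siFAH array was close to the highest control array. The difference was 0.30 (SE 0.08, limma adjusted p = 0.0463), or 1.23-fold. EIF1 itself had 10.76, 10.81 and 10.80 in siFAH arrays and 10.94, 10.98 and 11.05 in control arrays, which did not pass the test (-0.20, SE 0.07, adjusted p = 0.0791). The call of EIF1B was lost with median centring (0.24, adjusted p = 0.0758) and without siFAH replicate 2 (0.150), siFAH replicate 3 (0.141), control replicate 1 (0.0519), control replicate 2 (0.0974) or control replicate 3 (0.142), and with the methods' t-test (0.186). The range over its alternatives was 0.0171 to 0.186.

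Both paralog pairs were compared within arrays, a comparison chosen after the values were seen. EIF1B minus EIF1 was -2.61, -2.43 and -2.48 in siFAH arrays and -2.90, -2.96 and -3.17 in control arrays, a shift of 0.50. EIF4EBP2 minus EIF4EBP1 was -0.34, -0.46 and -0.50 in siFAH arrays and -0.88, -0.83 and -0.82 in control arrays, a shift of 0.41. No test is given, since the arrays of each of these 4 genes already stood apart and the pairs were chosen for it.

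The remaining members were not called. EIF1AX, which scans with EIF1, differed by -0.26 (limma adjusted p = 0.0945) and EIF1AD, named for a shared domain, by -0.18 (0.201). EIF6, which keeps the large ribosomal subunit from joining too early, stood at -0.13, EIF5B, which joins the subunits, at 0.01, and EIF5A2, a paralog of the elongation and initiation factor eIF5A, at 0.17 (adjusted p = 0.197). EIF2A and EIF2D, which can deliver initiator tRNA without eIF2, stood at -0.03 and -0.06. One Y-linked member is counted among the 50 and its level is not given.

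Most members gave a bright signal, and over all genes the difference moved with the signal level. Of the 50 members, 36 lay in the brightest 20% of genes by mean signal, and there 69.3% of 3666 genes had a negative difference, 15.9% were called lower and 6.79% higher, with a median of -0.10. The 36 members in that range held all 5 calls, 29 of them (80.6%) were negative, and their median was -0.14. The medians in steps of 20%, dimmest to brightest, were 0.05, 0.05, 0.01, -0.05 and -0.10 over all genes. The part of signal level in the members' differences was not tested.

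**Figure D3:**
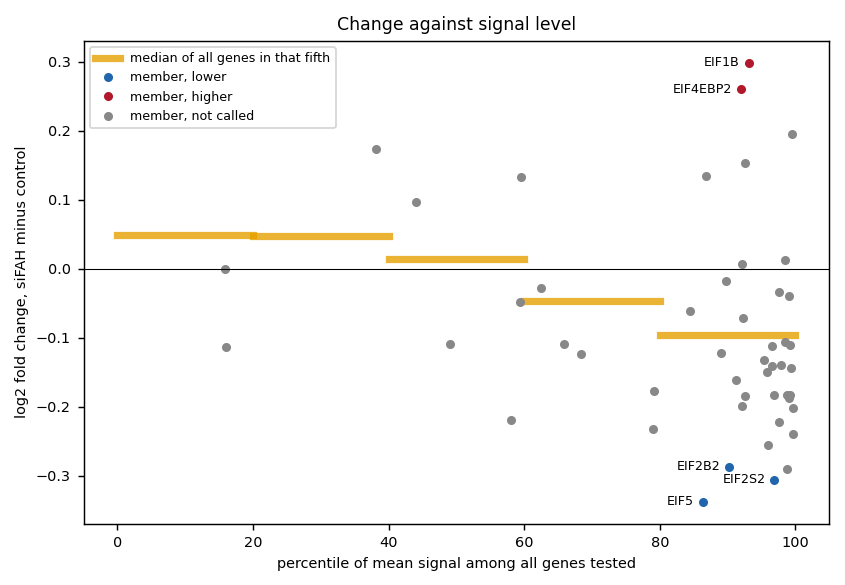
Difference in log2 signal, siFAH minus control siRNA, against the percentile of each member's mean signal among the 18372 genes; bars mark the median of all genes in each 20% of signal. The bar for the brightest genes lies at -0.10, and most members are plotted there.

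The medians of the groups also depended on how the arrays were scaled. The eIF2 and eIF2B median was -0.18 with the authors' values, -0.19 after quantile normalization, -0.24 after centring each array on its median and -0.17 after cyclic loess. The eIF3 median was -0.11, -0.10, -0.17 and -0.06 in the same order, that of the kinases -0.12, -0.09, -0.17 and -0.07, and that of eIF4 -0.02, -0.03, -0.07 and -0.01. Under each scaling the eIF2 and eIF2B median was the lowest of these 4 groups, and the brightest 20% of all genes stood at -0.10, -0.04, -0.15 and -0.02. The 4 eIF1 and eIF1A genes, outside these groups, had a median of -0.19 with the authors' values. The groups share arrays and scaling, so their order carries no test.

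**Figure D4:**
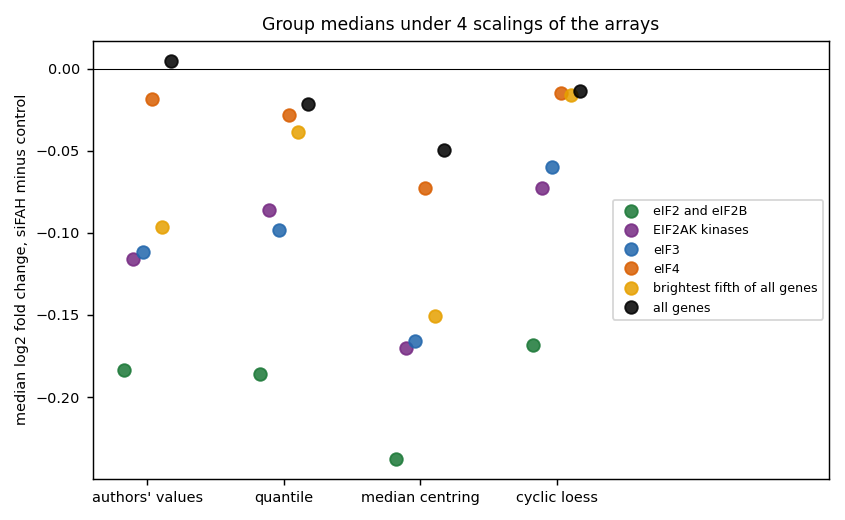
Median difference, siFAH minus control siRNA, of 4 groups of members, of the brightest 20% of all genes and of all genes, under the authors' values and 3 other scalings. The eIF2 and eIF2B point stays between -0.24 and -0.17, while the brightest genes range from -0.15 to -0.02.

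Several initiation factors were read by probe sets that the rule left out, 14 in all, of which 9 carried several gene symbols. In a fit over all 28829 probe sets, where 3.42% were called lower and 3.27% higher, 2 of the 14 were lower and 3 higher. The 2 lower ones both carry EIF5AL1 and EIF5A, where EIF5A makes the hypusine-bearing factor eIF5A. The first had 10.28, 10.05 and 10.002 in siFAH arrays, against 10.62, 10.68 and 10.86 in control arrays (-0.61, SE 0.10, limma adjusted p = 0.0130), and the second differed by -0.66 (adjusted p = 0.0116). The arrays did not overlap, and signals of the copies EIF5A and EIF5AL1 cannot be told apart here. EIF3C and EIF3CL shared 2 probe sets with identical values (-0.33, adjusted p = 0.0502), and the probe set of EIF4EBP3 with ANKHD1 stood at -0.23 (adjusted p = 0.0778).

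The helicases EIF4A1 and EIF4A2 gave opposite readings by probe set. The probe set shared by EIF4A1 and the readthrough SENP3-EIF4A1 had 10.19, 9.98 and 9.96 in siFAH arrays and 10.22, 10.24 and 10.29 in control arrays (-0.21, limma adjusted p = 0.148 over all probe sets). One that carries EIF4A1 and SNORA48 was higher, with 11.53, 11.66 and 11.60 in siFAH arrays, against 11.22, 11.16 and 10.995 in control arrays (0.47, adjusted p = 0.0157). In the RefSeq annotation SNORA48, SNORD10 and SNORA67 lie inside EIF4A1, and SNORA67, a small nucleolar RNA with a probe set of its own, was also higher (0.68, SE 0.11, adjusted p over genes = 0.00519).

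For EIF4A2 the brightest probe set, used as the member, had 8.72, 8.84 and 8.66 in siFAH arrays and 8.89, 8.78 and 8.98 in control arrays and was not called (-0.14, SE 0.08, limma adjusted p over genes = 0.286). A second probe set with that symbol had 8.18, 8.69 and 8.58 in siFAH arrays, against 7.55, 7.40 and 7.23 in control arrays (1.09, SE 0.14, adjusted p over probe sets = 0.00686), and one shared with SNORA4 differed by 0.67 (adjusted p = 0.0392). The mean of the EIF4A2 probe sets with 1 symbol was therefore higher, at 0.47 (adjusted p = 0.00998). RefSeq places SNORD2, SNORA63B, SNORA81, SNORA63, SNORA4 and MIR1248 inside EIF4A2, and which transcript each probe set reads was not tested.

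EIF4B, which stimulates eIF4A, was read by 3 probe sets with 1 symbol. The brightest had 10.61, 10.94 and 10.66 in siFAH arrays and 10.35, 10.50 and 10.78 in control arrays, with overlap (0.20, SE 0.12, limma adjusted p = 0.325). The others stood at -0.20 and 0.32, and none of the 3 was called. For EIF1AX the member probe set stood at -0.26 and the other at -0.02, while both probe sets of EIF4H stood at -0.18.

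**Figure D5:**
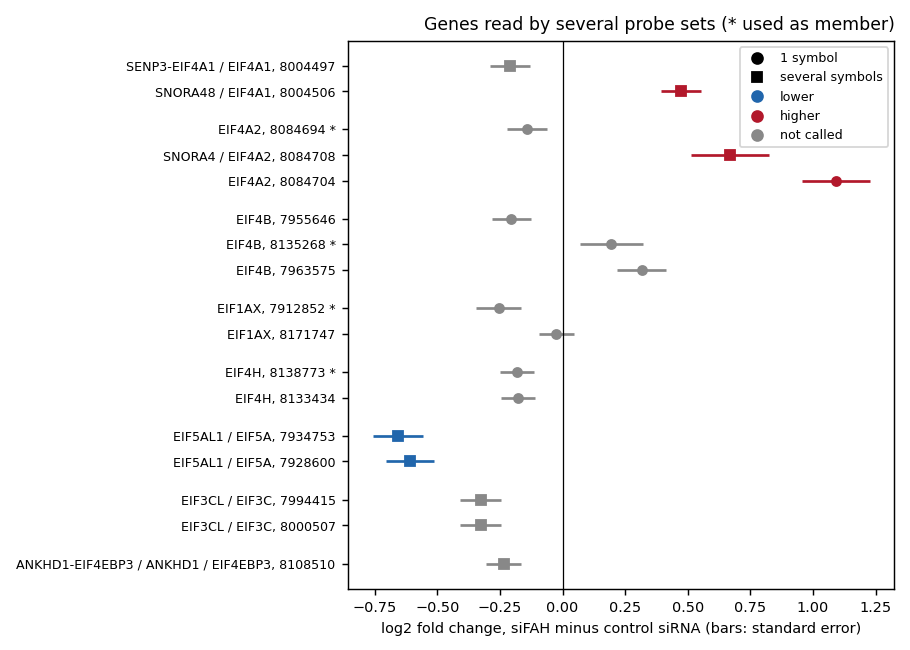
Difference in log2 signal, siFAH minus control siRNA, for initiation factors read by more than 1 probe set or by a probe set with several symbols; bars are standard errors from the fit over 28829 probe sets, and a star marks the probe set used as the member. The EIF5A probe sets lie near -0.6, and the EIF4A2 probe sets range from -0.14 to 1.09.

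Neighboring steps of translation were listed for comparison, where 6.38% of all genes were called lower and 3.48% higher. Of 25 cap and mTORC1 partners measured, 1 was lower (DDX3X, an RNA helicase that acts on structured leaders, -0.33, limma adjusted p = 0.0236) and 1 higher (AKT1S1, the mTORC1 inhibitor PRAS40, 0.24, adjusted p = 0.0417), with a median of -0.10. Of 12 elongation and termination factors measured, EEF1D, an exchange factor of eEF1A, was lower, with 9.53, 9.24 and 9.16 in siFAH arrays, against 9.81, 9.86 and 9.95 in control arrays (-0.56, SE 0.10, adjusted p = 0.00686), and the list's median was -0.12. Of 9 start codon, recycling and reinitiation factors, 0 were called by limma, 2 were lower and 1 higher at an unadjusted p under 0.05 (15.3% and 10.8% of all genes), and the median was -0.07. These medians lie near that of the brightest 20% of all genes.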

How the data were processed

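Total RNA of 6 A375 cultures (3 siFAH, 3 negative control siRNA, grouped by their transfection labels) was hybridized to 1 array each. The deposited log2 signals were made by the authors with Robust Multichip Analysis, which corrects background, normalizes between arrays (global scaling is named) and gives 1 value per probe set; the version is not given in the sources used here. The sources differ on the RNA and labeling kits. Arrays have no read depth. With 3 arrays a group the smallest exact permutation p is 0.1.

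Of 28829 probe sets, 19291 carry 1 gene symbol, 1735 several and 7803 none here. The brightest probe set per symbol left 18372 genes, which were fitted by limma (version 3.58.1, lmFit and eBayes, under R version 4.3.3; residual degrees of freedom 4, prior 6.52), two-sided, and adjusted by Benjamini-Hochberg over all of them. Scripts were tested on simulated data. Matplotlib 3.10.9 (Python 3.11.15) drew the figures.

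Members and lists were chosen with earlier results of these data known. The naming rule took FAH, each member (per-array values for called members, eIF2 and eIF2B, kinases and EIF4EBP genes), the called genes of each list up to 4 by size, and ATF4; per-array values of other genes were added after they were seen. Alternatives changed the scaling (quantile, median centring, cyclic loess), the filter (dim genes out), the variance model (trend with robust, array weights), the test (methods' t-test, SAM, 1.2-fold limits), the probe sets (their mean per gene), the pairing (replicate block) and the arrays (each left out in turn). SAM was own code with 20 label arrangements and a fudge constant of 0.0778; its q was recoded as permuted over observed counts after a first version, which adjusted pooled permutation p-values, had called 0 genes. Promoters came from RefSeq (GRCh38.p14), and no genome was used.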

Additional observations from a re-analysis of the deposited data

How the results depend on the processing

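The 17 alternatives gave 828 values for 49 members, of which 736 kept their direction and their side of the threshold, 35 lost a call, 29 gained one and 28 changed sign. Against 3 members called lower and 2 higher, centring each array gave 6 and 0, leaving out dim genes 13 lower, eBayes with trend and robust 7 lower, array weights 7 lower, SAM 6 lower, the methods' t-test 1 and 0, and the 1.2-fold limits 1 higher. Lower calls over all genes, 1172 in the main fit, were 1678 with centring and 1733 of 9186 with dim genes left out. Trend and robust gave 1568 of them, array weights 1743 and SAM 1515. Leaving out dim genes lowers the number of genes adjusted over and also refits the variance model. In that fit 25 of 44 members had an unadjusted limma p under 0.05, against 19 of 49 in the main fit. The cause of these shifts was not tested for any setting. Leaving out single arrays gave 0 to 4 lower and 0 to 1 higher. In eIF2 and eIF2B, cyclic loess and the t-test left 1 lower gene, and single arrays 0 to 2. In eIF3, centring, trend and robust, and the 1.2-fold limits gave 1 lower gene, dim genes left out 3 and array weights 2, and single arrays 0 to 1. In eIF4, centring and array weights gave 1 lower gene, dim genes left out 3, and trend and robust and SAM 2 each. Leaving out dim genes made 1 kinase, EIF2AK2, lower. FAH (-0.77) was not called by the t-test (adjusted p = 0.118).

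With the replicate number as a block, 0 members were called lower and 0 higher, and 0 of the eIF2 and eIF2B genes (EIF5 adjusted p = 0.0518, EIF2S2 0.0606, EIF2B2 0.0843, EIF4EBP2 0.0948, EIF1B 0.0980), while all genes gave 462 lower and 299 higher, against 1172 and 639 without it. Deviations of arrays with the same number had correlations of -0.155, -0.0891 and -0.274, and none was closest to its own number. No sign of pairing by number was thus seen. With so few arrays a group, these correlations cannot decide whether the numbers pair the arrays, and the block result is not set aside.

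Over all genes the share of calls that were lower was 64.7%, and 61.7% with quantile normalization, 80.1% with centring (1678 lower, 416 higher) and 56.2% with cyclic loess (893 and 695). Dim genes left out gave 1733 lower and 725 higher of 9186, eBayes with trend and robust 1568 and 764, array weights 1743 and 1170, SAM 1515 and 849, and the t-test 8 and 6.

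Signs turned mostly in genes near 0. Quantile normalization gave EIF2D 0.0027, EIF4G1 0.0542, EIF4E -0.0737 and EIF2AK1 0.0105, and centring gave EIF3G -0.0412, EIF5B -0.0477 and EIF4E -0.0540. Cyclic loess gave EIF2D 0.0165, EIF2A 0.0434, EIF4G1 0.0702, EIF4E -0.0676, EIF2AK1 0.0182 and EIF3H 0.0223, and array weights gave EIF3G -0.0087, EIF2A 0.0059 and EIF4E -0.00071. The mean of probe sets turned EIF4A2 to 0.474. Leaving out single arrays gave -0.136 to 0.0020 for EIF2D, -0.0130 to 0.0465 for EIF3G, -0.0015 to 0.0134 for EIF5B, -0.108 to 0.0205 for EIF4ENIF1, -0.0535 to 0.0166 for EIF4G1 and -0.0500 to 0.0565 for EIF4E.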
